A study of Homo sapiens with 8 samples.

Results

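Desmosome components were followed in RNA-seq libraries of 2 breast epithelial cell lines transduced with pLOC-empty or pLOC-*MALINC1*. The members are the 10 genes *DSG2*, *DSG3*, *DSC2*, *DSC3*, *JUP*, *PKP1*, *PKP2*, *PKP3*, *DSP* and *PERP*, and they were taken by symbol from the table of normalized expression values. Of these, 9 were found among the 13842 genes of the table, and *PKP1* was not analysed here. The rule uses the symbols and no expression value, but the set was chosen with earlier results of these data known.

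The MCF10A line, derived from normal breast epithelium, and the DCIS.COM line, a model of ductal carcinoma in situ from the same MCF10 lineage, were each stably transduced and selected with blasticidin. The control cells therefore carried a vector and had passed the same selection. There were 4 groups (MCF10A pLOC-empty, MCF10A pLOC-*MALINC1*, DCIS.COM pLOC-empty and DCIS.COM pLOC-*MALINC1*) with 2 libraries in each and 8 in all. RNA came from plates below confluence. Both lines were grown in DMEM/F-12 with horse serum, but only the MCF10A medium also held epidermal growth factor, hydrocortisone, insulin, cholera toxin and antibiotics, so line and medium cannot be told apart. *MALINC1* is a long non-coding RNA, and the libraries were made to see which transcripts differ when it is overexpressed in normal and in pre-invasive cells. The labels do not say that the libraries of a group came from separate cultures. The p-values therefore measure only the spread between libraries, which may be technical. Separate transductions with the same vector are not described either, so the vector and the transduced population cannot be told apart.

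Desmosomes are spot-like junctions that tie the keratin filaments of neighbouring epithelial cells together. Desmogleins and desmocollins are cadherins that span the membrane and bind those of the next cell. Inside the cell, the armadillo proteins plakoglobin (*JUP*) and the plakophilins hold the cadherin tails, and desmoplakin (*DSP*) links this plaque to keratin. *PERP* is a tetraspan membrane protein of the desmosome and a target gene of the p53 family. In stratified and basal epithelia *DSG3* and *DSC3* are typical of the basal layers, whereas *DSG2* and *DSC2* occur in most epithelia, the simple ones included.

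The 4 cadherin genes lie together on chromosome 18 of GRCh37 (hg19), which allowed their start regions to be set side by side. *DSC3* (28569331 to 28622781) and *DSC2* (28638806 to 28682485) lie on the minus strand, and *DSG3* (29027704 to 29058665) and *DSG2* (29078140 to 29128971) on the plus strand. The other members are single genes, with *DSP* (7541571 to 7586947, plus strand) and *PERP* (138409642 to 138428556, minus strand) on chromosome 6, *JUP* on chromosome 17 (39910856 to 39943183, minus strand), *PKP2* on chromosome 12 (32943679 to 33049732, minus strand) and *PKP3* on chromosome 11 (392614 to 404908, plus strand). The RefSeq promoter windows (GRCh38.p14) hold the 250 bases before and the 50 bases after an annotated start and were available for 7 members, in 9 windows. *PKP2* and *PKP3* had no entry. The 4 windows below are printed because the basal-type and the general paralog differ in them. Capitals mark each GC box (GGGCGG, either strand) and each p53 family half-site, which is only a part of a full site.
DSG3, chr18:31447491-31447790, plus strand: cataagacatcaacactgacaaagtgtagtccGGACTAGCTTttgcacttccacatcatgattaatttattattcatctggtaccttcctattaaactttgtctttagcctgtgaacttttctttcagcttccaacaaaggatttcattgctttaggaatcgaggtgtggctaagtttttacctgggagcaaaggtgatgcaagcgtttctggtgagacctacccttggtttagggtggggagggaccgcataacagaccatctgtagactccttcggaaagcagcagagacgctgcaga
DSG2, chr18:31497927-31498226, plus strand: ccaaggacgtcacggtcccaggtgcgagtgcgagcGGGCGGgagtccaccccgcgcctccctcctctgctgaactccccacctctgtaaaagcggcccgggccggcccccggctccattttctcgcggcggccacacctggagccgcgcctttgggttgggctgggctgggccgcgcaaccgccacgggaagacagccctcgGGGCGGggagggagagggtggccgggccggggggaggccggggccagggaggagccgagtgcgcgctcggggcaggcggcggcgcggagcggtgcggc
DSC3, chr18:31042693-31042992, minus strand: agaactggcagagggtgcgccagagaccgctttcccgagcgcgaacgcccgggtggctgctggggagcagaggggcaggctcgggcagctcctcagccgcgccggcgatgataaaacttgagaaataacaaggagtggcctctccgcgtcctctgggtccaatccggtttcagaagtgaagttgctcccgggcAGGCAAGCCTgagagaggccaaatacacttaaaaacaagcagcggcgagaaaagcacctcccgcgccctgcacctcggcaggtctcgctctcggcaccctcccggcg
DSC2, chr18:31102372-31102671, minus strand: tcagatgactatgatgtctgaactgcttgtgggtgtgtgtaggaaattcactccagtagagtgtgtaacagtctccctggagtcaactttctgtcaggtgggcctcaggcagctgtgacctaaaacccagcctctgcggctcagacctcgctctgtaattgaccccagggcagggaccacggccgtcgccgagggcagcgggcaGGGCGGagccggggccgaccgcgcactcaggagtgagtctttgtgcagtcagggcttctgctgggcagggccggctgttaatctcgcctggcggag

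The windows of *DSG3* and *DSC3* each held 1 p53 family half-site and no GC box. The windows of *DSG2* (2 GC boxes) and of *DSC2* (1 in the window printed, 2 in its other window) held GC boxes and no p53 family half-site. Of 35116 promoter windows of the same length, 6.63% held the p53 family half-site and 45% the GC box. The GC content was 44% for *DSG3*, 63.3% for *DSC3*, 60.7% for the printed *DSC2* window and 76.7% for *DSG2*, against a median of 58.7% over all windows. The remaining windows belonged to *DSP* with 8 GC boxes, *PERP* with 5 and *JUP* with 3 in its first window and 0 in its second. None of these windows, that of *PERP* included, held a p53 family half-site. The AP-1 site TGAGTCA was found only in the *PERP* window (4.95% of all windows hold it). The E-box CAGGTG was found 2 times in *DSG2*, 1 time in the printed *DSC2* window, 2 times in *DSP* and 2 times in the second *JUP* window (20.6% of all windows). The grainyhead site AACNGGTT was in none of the 9 windows (1.73% of all windows). All motifs were searched on both strands, and no match overlapped a match of another motif. A match describes the letters of the window and is not evidence of binding.

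Expression is given as CPM, the reads of a gene scaled by a library size that the authors' normalization had adjusted. This size is not the plain total of reads counted on genes. The libraries held 20604377 to 37550457 reads counted on genes, and replicates correlated at r = 0.996 to 0.997 across genes. *MALINC1* was at 1.07 and 1.58 CPM in MCF10A pLOC-empty and at 13.3 and 11.8 CPM in MCF10A pLOC-*MALINC1*. In DCIS.COM its level was 1.42 and 1.22 CPM with pLOC-empty and at 24.5 and 19.2 CPM with pLOC-*MALINC1*, so that every library matched the vector in its label. *MALINC1* was similar in both lines with pLOC-empty and does not check the line in the label. Fold changes are given as log2FC, the difference of mean log2 CPM, with its standard error (SE). For *MALINC1* the log2FC was 3.27 in MCF10A (SE 0.19, adjusted p = 3.97e-08) and 4.04 in DCIS.COM (SE 0.19, adjusted p = 6.93e-09). All 6 epithelial markers were in the table (*CDH1*, *EPCAM*, *KRT5*, *KRT14*, *KRT8* and *KRT18*). The defining leukocyte genes *PTPRC*, *CD3E* and *CD79A* and the endothelial genes *CDH5* and *VWF* were not in the table. Of the fibroblast markers only *COL1A1* was in it. All tests below are limma fits over the 13842 genes with Benjamini-Hochberg adjustment, and a gene passed at an adjusted p below 0.01. A gene that passed and also changed over 2-fold was called a differentially expressed gene (DEG).

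The desmosome genes together took a larger share of the reads in MCF10A than in DCIS.COM, and in both lines a larger share with pLOC-*MALINC1*. Their summed share was 0.421% and 0.436% in MCF10A pLOC-empty and 0.522% and 0.481% in MCF10A pLOC-*MALINC1*. In DCIS.COM it was 0.186% and 0.194% with pLOC-empty and 0.279% and 0.306% with pLOC-*MALINC1*. These shares are of the plain total of reads counted on genes. The summed CPM was 4410 and 4529 in MCF10A pLOC-empty and 5466 and 5087 in MCF10A pLOC-*MALINC1*. For DCIS.COM the sums were 1869 and 1911 with pLOC-empty and 2593 and 2768.5 with pLOC-*MALINC1*. The groups did not overlap. In bulk RNA, fewer cells that express a gene and less RNA per cell cannot be told apart.

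**Figure D1:**
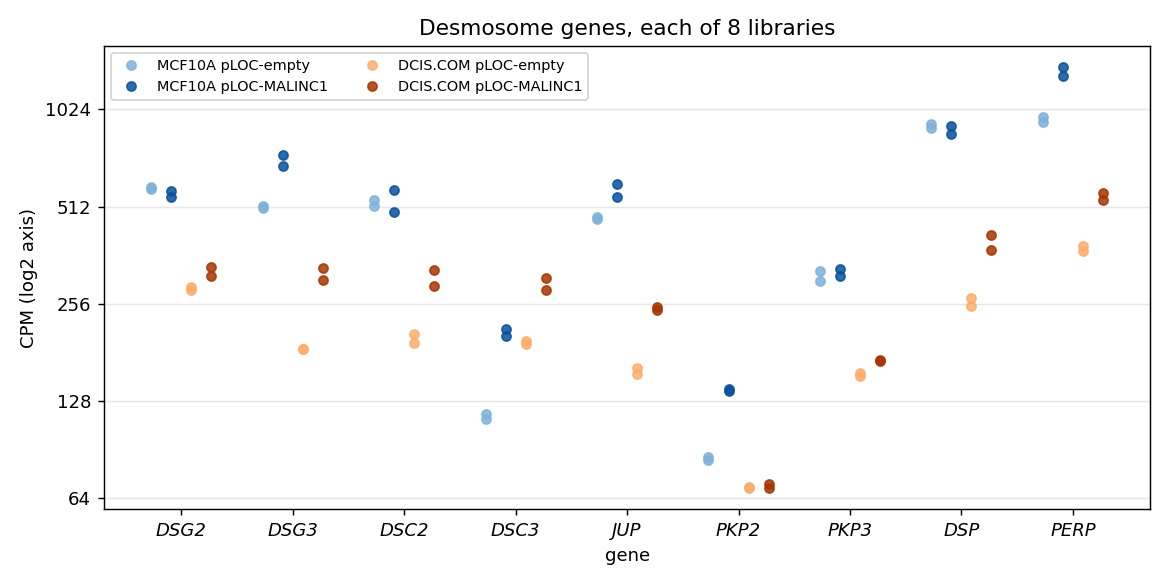
CPM of the 9 desmosome genes on a log2 axis, with 1 point for each library and 1 colour for each group (MCF10A in blue, DCIS.COM in orange, pLOC-empty light and pLOC-MALINC1 dark). The DCIS.COM points lie below the MCF10A points for every gene except DSC3, whose DCIS.COM pLOC-empty libraries (193 and 197 CPM) lie above those of MCF10A pLOC-empty (112 and 117 CPM).

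In MCF10A, 5 of the 9 desmosome genes were higher with pLOC-*MALINC1*. The basal-type cadherins *DSC3* (1.82-fold) and *DSG3* (1.40-fold), the armadillo genes *PKP2* (1.63-fold) and *JUP* (1.21-fold), and *PERP* (1.41-fold) were higher. *DSG2*, *DSC2*, *PKP3* and *DSP* did not pass the test. No member fell, and no member changed over 2-fold. Of all genes, 21.5% passed as higher and 18.1% as lower in this comparison (39.6% in either direction), and 5.50% were DEGs. The median log2FC of the members was 0.28, whereas that of all genes was near 0, with a median size of 0.23.

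In DCIS.COM, 7 of the 9 were higher with pLOC-*MALINC1*. The cadherins *DSG3* (1.71-fold), *DSC2* (1.54-fold), *DSC3* (1.51-fold) and *DSG2* (1.13-fold) were higher, as were *JUP* (1.56-fold), *DSP* (1.53-fold) and *PERP* (1.45-fold). *PKP2* and *PKP3* did not pass. Again no member fell and none changed over 2-fold. Of all genes, 16.4% passed as higher and 16.7% as lower (33.2% in either direction) and 4.53% were DEGs. The median log2FC of the members was 0.60, against 0.01 over all genes with a median size of 0.20.

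**Figure D2:**
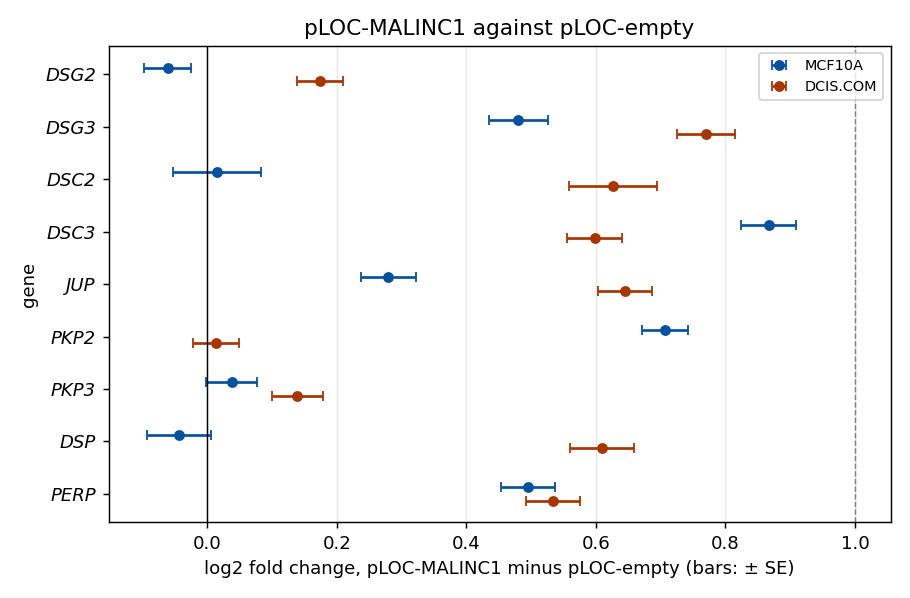
Log2FC of each desmosome gene between pLOC-MALINC1 and pLOC-empty (horizontal axis; bars, standard error of the limma fit) in MCF10A (blue) and DCIS.COM (orange), with the 2-fold limit as a dashed line. All points stay below the limit, and DSC2 (0.02 against 0.63), DSP (-0.04 against 0.61) and PKP2 (0.71 against 0.01) lie far apart between the lines.

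The size of the vector effect differed between the lines for 7 of the 9 members by the test of the difference itself, where 35.9% of all genes passed (15.6% with the larger value in DCIS.COM and 20.3% with the larger value in MCF10A). The change was larger in DCIS.COM for *DSP*, *DSC2*, *JUP*, *DSG3* and *DSG2*, and larger in MCF10A for *PKP2* and *DSC3*. *PERP* and *PKP3* did not pass. No member differed by over 2-fold, against 9.20% of all genes. The median difference of the members was 0.24 on the log2 scale and that of all genes -0.01.

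Among the desmogleins, *DSG3*, the basal-type desmoglein and the antigen of pemphigus vulgaris, was higher with pLOC-*MALINC1* in both lines. It was at 514 and 508 CPM in MCF10A pLOC-empty and at 742 and 685 CPM in MCF10A pLOC-*MALINC1*, a log2FC of 0.48 (SE 0.045, adjusted p = 2.81e-06). In DCIS.COM the libraries stood at 186 and 186 CPM with pLOC-empty and at 303 and 331 CPM with pLOC-*MALINC1*, a log2FC of 0.77 (SE 0.045, adjusted p = 5.33e-08). In neither line did the groups overlap. The effect was larger in DCIS.COM by 0.29 on the log2 scale (adjusted p = 0.00255), but this call was lost without MCF10A pLOC-empty library 1, MCF10A pLOC-*MALINC1* library 2, DCIS.COM pLOC-empty library 1 or 2, or DCIS.COM pLOC-*MALINC1* library 2 (adjusted p = 0.0123 to 0.0146, log2 difference 0.23 to 0.29).

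*DSG2*, the desmoglein of simple epithelia and heart, had the smaller differences of the pair. Its level was 582 and 589 CPM in MCF10A pLOC-empty and 572 and 551 CPM in MCF10A pLOC-*MALINC1* (log2FC -0.06, SE 0.036, adjusted p = 0.176), so that both *MALINC1* libraries were the lower ones but the test was not passed. After quantile normalization it was (log2FC -0.13, adjusted p = 0.00617). The DCIS.COM libraries stood at 283 and 289 CPM with pLOC-empty and at 313 and 333 CPM with pLOC-*MALINC1*, a log2FC of 0.17 (SE 0.036, adjusted p = 0.00179). This small rise was no longer called without DCIS.COM pLOC-empty library 1 (log2FC 0.16, adjusted p = 0.0233), DCIS.COM pLOC-empty library 2 (0.19, adjusted p = 0.0105) or DCIS.COM pLOC-*MALINC1* library 2 (0.13, adjusted p = 0.0226). It was also lost without the trend (adjusted p = 0.0324) and when that line was fitted alone (adjusted p = 0.0245). The difference between the lines was 0.24 (SE 0.051, adjusted p = 0.00225) and was likewise not called without MCF10A pLOC-empty library 2, MCF10A pLOC-*MALINC1* library 2, DCIS.COM pLOC-empty library 1 or DCIS.COM pLOC-*MALINC1* library 2 (adjusted p = 0.0106 to 0.0149). *DSG2* overlaps the opposite-strand gene *DSG2-AS1*, and the strand setting of the counting is not given in the sources used here.

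Among the desmocollins, *DSC3* rose in both lines and *DSC2* in DCIS.COM. *DSC3*, the basal-type desmocollin, was at 112 and 117 CPM in MCF10A pLOC-empty and at 214 and 204 CPM in MCF10A pLOC-*MALINC1*, the largest fold change of any member in that line (log2FC 0.87, SE 0.043, adjusted p = 9.9e-09). In DCIS.COM *DSC3* was at 193 and 197 CPM with pLOC-empty and at 283 and 308 CPM with pLOC-*MALINC1* (log2FC 0.60, SE 0.043, adjusted p = 3.03e-07). The MCF10A pLOC-*MALINC1* libraries thus reached a level just above that of DCIS.COM pLOC-empty. The effect was smaller in DCIS.COM by 0.27 on the log2 scale (log2 difference -0.27, adjusted p = 0.0028). That call was lost without MCF10A pLOC-empty library 1, MCF10A pLOC-*MALINC1* library 1, DCIS.COM pLOC-empty library 2 or DCIS.COM pLOC-*MALINC1* library 1 (log2 difference -0.25 to -0.21, adjusted p = 0.0136 to 0.0168).

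*DSC2*, the general desmocollin, showed the opposite order between the lines. In MCF10A it was at 516 and 538 CPM with pLOC-empty and at 577 and 492 CPM with pLOC-*MALINC1*, so that the *MALINC1* libraries lay on both sides of the controls (log2FC 0.02, SE 0.068, adjusted p = 0.871). In DCIS.COM its level was 194 and 206 CPM with pLOC-empty and at 291 and 327 CPM with pLOC-*MALINC1*, with no overlap (log2FC 0.63, SE 0.068, adjusted p = 1.2e-05). The difference between the lines was 0.61 on the log2 scale (SE 0.096, adjusted p = 0.000231). *DSC2* overlaps the opposite-strand gene *DSCAS*.

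Of the armadillo genes, *JUP*, whose product plakoglobin also occurs in adherens junctions, rose in both lines. It was at 469 and 476 CPM in MCF10A pLOC-empty and at 601 and 548 CPM in MCF10A pLOC-*MALINC1* (log2FC 0.28, SE 0.042, adjusted p = 0.000134). In DCIS.COM the libraries stood at 162 and 155 CPM with pLOC-empty and at 251 and 245 CPM with pLOC-*MALINC1* (log2FC 0.64, SE 0.042, adjusted p = 1.29e-07). The groups were apart in both lines, and the effect was larger in DCIS.COM by 0.36 (adjusted p = 0.000284). In MCF10A the call is lost when that line is fitted alone (adjusted p = 0.0183) and without the trend (adjusted p = 0.0102).

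*PKP2*, the plakophilin of simple epithelia and heart, rose in MCF10A. Its level there went from 85.8 and 84.0 CPM to 139.8 and 137 CPM (log2FC 0.71, SE 0.036, adjusted p = 1.25e-08). The DCIS.COM libraries stood at 69.3 and 69.1 CPM with pLOC-empty and at 68.8 and 70.9 CPM with pLOC-*MALINC1*, where the groups overlapped (log2FC 0.01, SE 0.036, adjusted p = 0.786). The difference between the lines was -0.69 on the log2 scale (SE 0.051, adjusted p = 3.27e-07), the largest in size of any member. A processed pseudogene of a ribosomal protein, *RPL35AP27*, lies on the opposite strand within *PKP2*.

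*PKP3*, a plakophilin found in most desmosomes, passed in neither line. It was at 301 and 324 CPM in MCF10A pLOC-empty and at 328 and 313 CPM in MCF10A pLOC-*MALINC1*, which overlap (log2FC 0.04, SE 0.040, adjusted p = 0.45). In DCIS.COM both *MALINC1* libraries (171 and 170.2 CPM) were above the controls (157 and 153 CPM), but by 1.10-fold only (log2FC 0.14, SE 0.040, adjusted p = 0.0127). This value lay just outside the limit. It passed in 7 of the alternatives, with adjusted p from 0.0078 to 0.0099, among them the fits without MCF10A pLOC-empty library 1 (adjusted p = 0.00823) or 2 (adjusted p = 0.00829).

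*DSP*, the obligate linker of the plaque to keratin, rose in DCIS.COM. In MCF10A it was at 897 and 924 CPM with pLOC-empty and at 907 and 859.9 CPM with pLOC-*MALINC1*, which overlap (log2FC -0.04, SE 0.050, adjusted p = 0.488). In DCIS.COM its level was 252 and 267 CPM with pLOC-empty and at 376 and 419 CPM with pLOC-*MALINC1* (log2FC 0.61, SE 0.050, adjusted p = 9.77e-07). The difference between the lines was 0.65 on the log2 scale (SE 0.070, adjusted p = 9.84e-06). *DSP* overlaps the opposite-strand gene *DSP-AS1*.

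*PERP*, the membrane protein of the set, rose in both lines. It was at 934 and 968 CPM in MCF10A pLOC-empty and at 1386 and 1297 CPM in MCF10A pLOC-*MALINC1* (log2FC 0.50, SE 0.042, adjusted p = 1.01e-06). In DCIS.COM the libraries stood at 374 and 387 CPM with pLOC-empty and at 536 and 566 CPM with pLOC-*MALINC1* (log2FC 0.53, SE 0.042, adjusted p = 6.67e-07). The difference between these effects was 0.04 on the log2 scale with a SE of 0.059 (adjusted p = 0.623).

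Between the lines, 8 of the 9 members were lower in DCIS.COM and 1, *DSC3*, was higher. With pLOC-empty all 9 passed the test, and so did 73.9% of all genes (36.0% as lower and 37.9% as higher in DCIS.COM). *DSP* was 3.50-fold lower, *JUP* 2.98-fold, *DSG3* 2.75-fold, *DSC2* 2.64-fold, *PERP* 2.50-fold, *DSG2* 2.04-fold and *PKP3* 2.02-fold. These 7 were DEGs, as were 13.0% of all genes in this direction. *PKP3* lay close to the limit, and 6 were DEGs without MCF10A pLOC-empty library 2 (*PKP3* log2FC -0.96) or without DCIS.COM pLOC-empty library 2 (-0.99). *PKP2* was 1.23-fold lower (log2FC -0.29, adjusted p = 6.39e-06), and *DSC3* was 1.70-fold higher (log2FC 0.77, SE 0.043, adjusted p = 2.87e-09). The largest drop, that of *DSP*, had a log2FC of -1.81 (SE 0.050, adjusted p = 3.67e-12). The median of the members was -1.32 on the log2 scale and that of all genes 0.03.

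With pLOC-*MALINC1* the same direction held for each member, and 73.0% of all genes passed (37.2% as lower and 35.7% as higher). Here 4 members were DEGs, against 12.2% of all genes as lower DEGs. They were *JUP* (2.32-fold lower), *PERP* (2.44-fold), *DSG3* (2.25-fold) and *DSP* (2.23-fold). *PKP2* was now 1.98-fold lower (log2FC -0.99, SE 0.036, adjusted p = 5.52e-11) and *DSC3* 1.41-fold higher (log2FC 0.50, adjusted p = 2.24e-07). *PKP2* was a DEG as well, 5 in all, without MCF10A pLOC-*MALINC1* library 2 or without DCIS.COM pLOC-*MALINC1* library 2 (log2FC -1.01 in the latter). The median of the members was -0.99 on the log2 scale and that of all genes 0.01. The comparisons of lines and of vectors share their libraries, so their values are set side by side and not tested against each other.

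**Figure D3:**
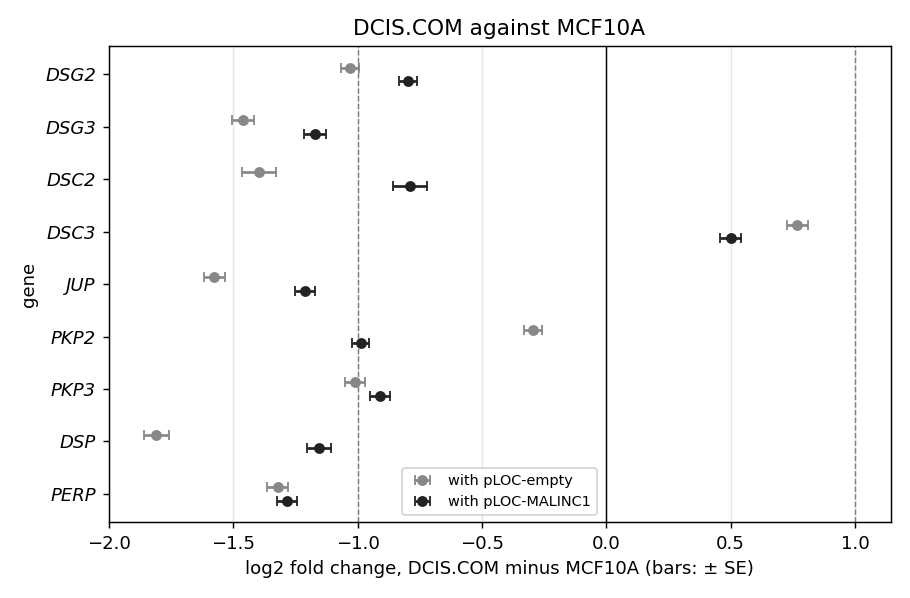
Log2FC of each desmosome gene between DCIS.COM and MCF10A (horizontal axis; bars, standard error of the limma fit), for cells with pLOC-empty (grey) and with pLOC-MALINC1 (black), with the 2-fold limits as dashed lines. With pLOC-empty DSP lies furthest to the left at -1.81, and DSC3 is the only gene to the right of 0, at 0.77 with pLOC-empty and 0.50 with pLOC-MALINC1.

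Levels were compared between genes as CPM per kb of the canonical transcript. *PERP* was the highest member in each group (226, 320, 90.6 and 131 CPM per kb, in the order MCF10A pLOC-empty, MCF10A pLOC-*MALINC1*, DCIS.COM pLOC-empty and DCIS.COM pLOC-*MALINC1*). In MCF10A pLOC-empty it was followed by *JUP* (135), *PKP3* (111), *DSG2* (103), *DSP* (93.9), *DSG3* (91.6), *DSC2* (42.7), *PKP2* (20.1) and *DSC3* (15.1), and no neighbours in that order overlapped. In DCIS.COM pLOC-empty the order was *PERP*, *PKP3* (55.0), *DSG2* (50.2), *JUP* (45.2), *DSG3* (33.3), *DSP* (26.8), *DSC3* (25.7), *PKP2* (16.4) and *DSC2* (16.2), and the last pair overlapped. With pLOC-*MALINC1* in DCIS.COM, *DSG3* (56.8) and *DSG2* (56.7) overlapped, as did *DSP* (41.0) and *DSC3* (38.9). *PERP* stayed first with the length of all exons of a gene, but other ranks moved with it, for example *DSG3* above *DSG2*.

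The balance of paralogs was described by the ratio of CPM per kb in each library, with no test. *DSG3* to *DSG2* was 0.902 and 0.882 in MCF10A pLOC-empty and 1.33 and 1.27 in MCF10A pLOC-*MALINC1*. In DCIS.COM it was 0.670 and 0.656 with pLOC-empty and 0.988 and 1.02 with pLOC-*MALINC1*. The ratio of the group means was thus 1.46-fold and 1.51-fold higher with pLOC-*MALINC1*, in MCF10A and DCIS.COM respectively.

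*DSC3* to *DSC2* was 0.354 and 0.352 in MCF10A pLOC-empty and 0.603 and 0.673 in MCF10A pLOC-*MALINC1*, a change of 1.81-fold. In DCIS.COM the ratio was 1.62 and 1.55 with pLOC-empty and 1.58 and 1.53 with pLOC-*MALINC1*, where both genes rose together. Per kb, *DSC3* was thus the higher of the pair in every DCIS.COM library. In CPM, *DSC2* was slightly the higher in each of them (means 200 against 195 with pLOC-empty and 309 against 295 with pLOC-*MALINC1*). The order of this pair in DCIS.COM therefore rests on the transcript lengths used (12331 bases for *DSC2* and 7583 for *DSC3*). With pLOC-empty the ratio in DCIS.COM was 4.49-fold that of MCF10A. *PKP3* to *PKP2* was 5.27 and 5.80 in MCF10A pLOC-empty and 3.53 and 3.42 in MCF10A pLOC-*MALINC1*. In DCIS.COM it was 3.40 and 3.33 with pLOC-empty and 3.74 and 3.60 with pLOC-*MALINC1*. The absolute size of a ratio depends on the transcript lengths used, whereas its change between groups does not.

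**Figure D4:**
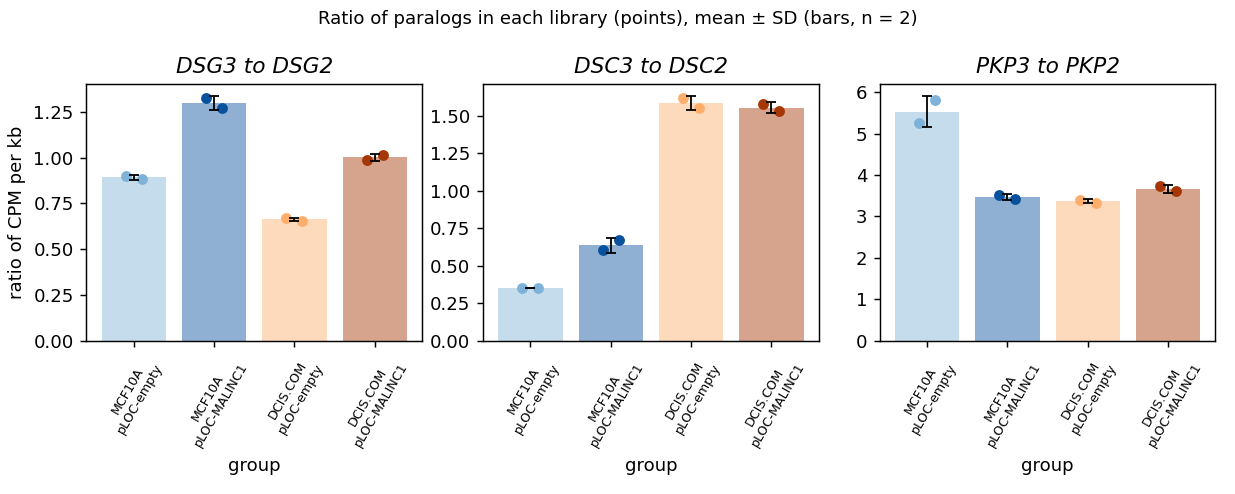
Ratio of CPM per kb for 3 pairs of paralogs in each library (points), with group means (bars, from 0) and SD (n = 2). DSG3 to DSG2 is higher with pLOC-MALINC1 in both lines, DSC3 to DSC2 is near 1.6 in both DCIS.COM groups (means 1.59 and 1.56) and below 0.7 in MCF10A, and PKP3 to PKP2 is highest in MCF10A pLOC-empty (mean 5.53).

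Of 5 other desmosome genes 4 were in the table. *DSG1*, the desmoglein of the upper epidermis, was at 0.692 and 0.647 CPM in MCF10A pLOC-empty and at 2.83 and 1.88 CPM in MCF10A pLOC-*MALINC1* (log2FC 1.79, SE 0.31, adjusted p = 0.000428). *DSG4*, the desmoglein of the hair shaft, was at 0.485 and 0.425 CPM and at 2.13 and 1.73 CPM in the same groups (log2FC 2.08, SE 0.32, adjusted p = 0.000162). Both were low but were DEGs, unlike any member. No DCIS.COM library held a read of *DSG1*, and *DSG4* had at most 1 read there. Against a floor of 3 reads per library, *DSG1* was at least 4.18-fold and *DSG4* at least 2.68-fold higher in MCF10A than in DCIS.COM with pLOC-empty. *CDSN*, the corneodesmosome protein, fell in MCF10A (log2FC -1.02, SE 0.25, adjusted p = 0.00462) and had a log2FC of 0.76 in DCIS.COM (adjusted p = 0.0263). *PKP4*, a relative of the plakophilins, had a log2FC of -0.05 in MCF10A (adjusted p = 0.317) and fell in DCIS.COM (-0.31, adjusted p = 2.87e-05).

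Of 11 keratin genes, whose filaments are anchored at desmosomes, 6 were higher and 2 lower in MCF10A, with a median log2FC of 0.31. In DCIS.COM 3 were higher and 3 lower, with a median of -0.04. The basal keratin *KRT5* rose in both lines (0.51, adjusted p = 7.88e-07, and 0.38, adjusted p = 1.19e-05). Its partner *KRT14* rose in MCF10A (1.01, adjusted p = 1.19e-09) and fell in DCIS.COM (-0.59, adjusted p = 1.45e-07). *KRT17* likewise rose in MCF10A (0.32, adjusted p = 5.66e-05) and fell in DCIS.COM (-0.27, adjusted p = 0.000265). *KRT6A* rose in MCF10A (0.31, adjusted p = 0.00016) and had a log2FC of 0.13 in DCIS.COM (adjusted p = 0.0403). *KRT15* had -0.05 in MCF10A (adjusted p = 0.489) and rose in DCIS.COM (0.25, adjusted p = 0.0018). *KRT19*, a keratin of simple epithelia, fell in MCF10A (-1.01, adjusted p = 0.000654) from a level of at most 3.52 CPM. Reads of *KRT6A*, *KRT14* and *KRT17* may be shared with near-identical copies, so these values are uncertain.

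Of 6 plakins, the family of *DSP*, 2 were higher and 1 lower in MCF10A, and 4 were higher and 0 lower in DCIS.COM, with medians of 0.06 and 0.46. *PLEC*, which links keratin to hemidesmosomes, had a log2FC of -0.07 in MCF10A (adjusted p = 0.214) and rose in DCIS.COM (0.48, adjusted p = 3.78e-06), values close to those of *DSP*. *DST* rose in both lines (0.80, adjusted p = 6.46e-08, and 0.46, adjusted p = 9.32e-06). *PPL*, the cornified envelope protein periplakin, fell in MCF10A (-0.36, adjusted p = 0.000196). *MACF1* passed in neither line (0.16, adjusted p = 0.0821, and -0.10, adjusted p = 0.292).

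Of 13 adherens junction genes, 5 were higher and 1 lower in MCF10A and 5 higher and 4 lower in DCIS.COM, with medians of 0.12 and 0.12. *CDH1*, E-cadherin, had a log2FC of 0.12 in MCF10A (adjusted p = 0.0422) and rose in DCIS.COM (0.59, adjusted p = 7.63e-07). *CDH3*, P-cadherin, rose in MCF10A (0.42, adjusted p = 7.25e-07) and had -0.02 in DCIS.COM (adjusted p = 0.672). *CTNNB1*, beta-catenin, the closest relative of plakoglobin, had 0.11 in MCF10A (adjusted p = 0.0439) and fell in DCIS.COM (-0.47, adjusted p = 1.73e-06), where *JUP* rose. *CTNNA1* fell in MCF10A (-0.21, adjusted p = 0.000433), and *NECTIN1*, a cell adhesion molecule, rose in both lines (1.42, adjusted p = 1.81e-10, and 0.34, adjusted p = 5.07e-05).

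Of 7 hemidesmosome genes, which anchor basal cells to the matrix, 3 were higher and 2 lower in MCF10A and 3 higher and 4 lower in DCIS.COM, with medians of 0.09 and -0.31. The integrin subunits *ITGA6* (0.77, adjusted p = 1.39e-07, and 0.28, adjusted p = 0.000767) and *ITGB4* (0.57, adjusted p = 9.83e-08, and 0.27, adjusted p = 7.56e-05) rose in both lines. *LAMA3*, a laminin subunit, had 0.09 in MCF10A (adjusted p = 0.0811) and fell in DCIS.COM (-1.0, adjusted p = 2.64e-09).

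**Figure D5:**
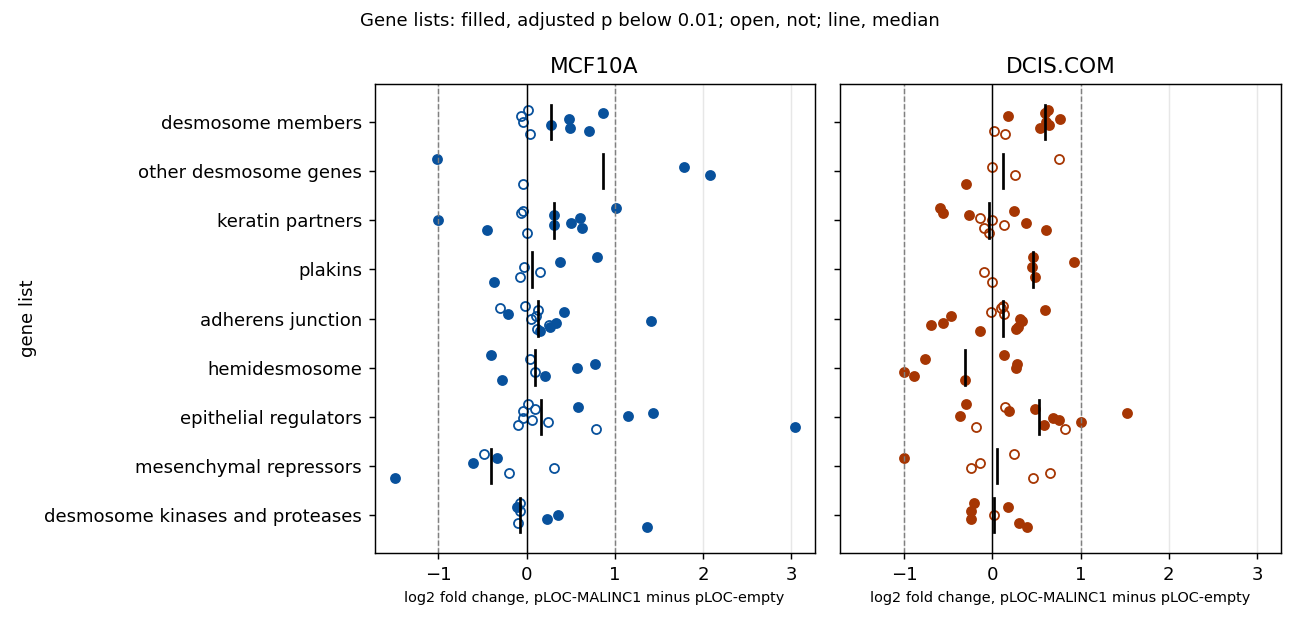
Log2FC between pLOC-MALINC1 and pLOC-empty for the desmosome genes and 8 related lists in MCF10A (left) and DCIS.COM (right). Filled points passed at an adjusted p below 0.01, open points did not, vertical bars are list medians and dashed lines the 2-fold limits. The desmosome genes hold no filled point to the left of 0 in either line, and the epithelial regulators reach 3.04 (TP63) in MCF10A.

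Of 12 transcription and splicing regulators of epithelial identity, 4 were higher and 0 lower in MCF10A, and 7 were higher and 2 lower in DCIS.COM, with medians of 0.17 and 0.53. *TP63*, the p63 gene of basal epithelium and the p53 family member that regulates desmosome genes in skin, was at 5.31 and 4.68 CPM in MCF10A pLOC-empty and at 41.8 and 40.2 CPM in MCF10A pLOC-*MALINC1* (log2FC 3.04, SE 0.065, adjusted p = 1.08e-11). The DCIS.COM libraries stood at 55.9 and 57.5 CPM with pLOC-empty and at 49.2 and 50.1 CPM with pLOC-*MALINC1* (log2FC -0.19, adjusted p = 0.0291). Any part of *TP63* in these results was not tested.

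*GRHL3*, a grainyhead factor of epithelial differentiation, rose in both lines (1.43, adjusted p = 5.83e-06, and 1.52, adjusted p = 4.35e-06). *OVOL1* had 0.24 in MCF10A (adjusted p = 0.0729) and rose in DCIS.COM (1.01, adjusted p = 7.99e-06). *KLF5* had 0.06 in MCF10A (adjusted p = 0.187) and rose in DCIS.COM (0.76, adjusted p = 7.61e-09). *GRHL2* (-0.04, adjusted p = 0.492, and 0.19, adjusted p = 0.00547) and the splicing factor *ESRP1* (0.02, adjusted p = 0.688, and -0.30, adjusted p = 1.28e-05) passed in DCIS.COM only.

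Of 6 repressors of epithelial genes, 0 were higher in either line, and 3 were lower in MCF10A and 1 in DCIS.COM, with medians of -0.41 and 0.06. *SNAI2* fell in both lines (-0.33, adjusted p = 0.00158, and -1.0, adjusted p = 2.2e-07). *ZEB2* (-1.5, adjusted p = 0.00172) and *TWIST1* (-0.61, adjusted p = 0.000216) fell in MCF10A. In DCIS.COM *ZEB2* was at or under the floor of 3 reads in every library, and *TWIST1* had -0.14 (adjusted p = 0.273). *TWIST2* passed in neither line (0.31, adjusted p = 0.221, and -0.24, adjusted p = 0.349).

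Of 7 kinases and proteases that act on desmosomal proteins, 3 were higher and 1 lower in MCF10A and 3 higher and 3 lower in DCIS.COM, with medians of -0.07 and 0.02. *SRC* rose in both lines (1.36, adjusted p = 2.24e-09, and 0.39, adjusted p = 0.000117). *EGFR* rose in MCF10A (0.36, adjusted p = 5.65e-05) and had 0.02 in DCIS.COM (adjusted p = 0.756). Of the sheddases, *ADAM15* fell slightly in MCF10A (-0.11, adjusted p = 0.00795) and rose in DCIS.COM (0.17, adjusted p = 0.000512). *ADAM10* (-0.21, adjusted p = 0.000792) and *ADAM17* (-0.25, adjusted p = 0.000159) fell in DCIS.COM.

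Cell type markers moved with the vector as well. The summed CPM of the 6 epithelial markers was 9544 to 9681 in MCF10A pLOC-empty and 13870.0 to 14160.0 in MCF10A pLOC-*MALINC1*. In DCIS.COM it was 4990.0 to 5084 and 5192 to 5340.0. The single epithelial markers did not all follow these sums. With pLOC-*MALINC1*, 4 were higher and 0 lower in MCF10A (median log2FC 0.556), and 2 higher and 1 lower in DCIS.COM (median 0.004). Between the lines with pLOC-empty, 3 were higher and 3 lower in DCIS.COM. The sum of the 5 mesenchymal markers was 1599 to 1659 in MCF10A pLOC-empty and 410.0 to 435 in MCF10A pLOC-*MALINC1*, and 631 to 649 and 478 to 490.0 in DCIS.COM. *FN1*, fibronectin, fell in MCF10A (-2.05, adjusted p = 1.06e-11) and rose in DCIS.COM (0.85, adjusted p = 1.18e-08), while *VIM* (-0.93, adjusted p = 1.2e-08, and -0.55, adjusted p = 1.4e-06) and *CDH2*, N-cadherin (-1.51, adjusted p = 2.07e-08, and -0.41, adjusted p = 0.00127) fell in both. *FN1* made up most of the mesenchymal sum in MCF10A pLOC-empty (mean 1522 CPM), and *VIM* most of that in DCIS.COM pLOC-empty (580 CPM). Between the lines with pLOC-empty, 4 mesenchymal markers were lower in DCIS.COM. The remaining 1, *VIM*, was higher there, against the sum (log2FC 3.15, adjusted p = 1.85e-14). The part of these markers in the desmosome results was not tested.

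Markers of other cell types were low. *CD68*, the only leukocyte marker of 4 in the table, lay between 3.60 and 11.5 CPM, and *COL1A1*, the only fibroblast marker of 5, between 1.58 and 15.9 CPM. *PECAM1*, the only endothelial marker of 3, was at 6.13 and 7.28 CPM in DCIS.COM pLOC-empty and at 0.159 and 0.249 CPM in DCIS.COM pLOC-*MALINC1*. The luminal markers *ESR1*, *GATA3* and *FOXA1* summed to 17.3 to 18.9 CPM in MCF10A pLOC-empty and to 23.9 to 25.7 CPM in MCF10A pLOC-*MALINC1*. In DCIS.COM they summed to 33.0 to 37.4 CPM and to 43.3 to 49.0 CPM.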

How the data were processed

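RNA-seq of 8 libraries, 2 in each of 4 groups, was used as deposited. The authors used Rsubread for alignment to hg19, featureCounts for counting on UCSC gene models and edgeR for normalization. Versions, the strand setting and the expression filter are not given in the sources used here. Each deposited value is a log2 CPM to which a prior count of 2, proportional to library size, had been added. With that prior count removed, 100% of the values gave whole reads within 0.05, and a gene without reads stood at 0.0713 CPM. The CPM printed here are 2 to the power of the deposited log2 values.

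Tests were made in R 4.3.3 by limma 3.58.1 (lmFit, then eBayes using a trend) on the log2 CPM, with 1 mean for each of the 4 groups over all 8 libraries and Benjamini-Hochberg adjustment over all genes tested. A minimum of 0.5 CPM in 2 or more libraries removed no gene, and 13842 were tested. The residual degrees of freedom were 4 and those of the prior 7.98. A gene passed at an adjusted p below 0.01 and was a DEG when it also changed over 2-fold. The steps were tested on simulated data with known changes. Alternatives changed the pseudocount, filter, scaling, model and thresholds, added a replicate block or left out each library in turn. Depths of 20604377 to 37550457 reads limit genes of few reads, and a floor of 3 reads per library was used for folds; it covers counting error only.

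The members and lists were chosen with earlier results of these data known. The text names every member, *MALINC1*, each list gene that is a DEG between vectors and up to 4 genes of the highest level in each list. Some genes under this rule are not reported here. No member was a DEG between vectors, so genes with a profile near a member's were not named. *PKP1* was not analysed here, and a planned ratio of *PKP1* to *PKP2* was not computed. Positions and lengths are those of GENCODE on GRCh37, and promoter windows those of RefSeq on GRCh38.p14. Other steps used Python 3.11.15, pandas 2.3.3, numpy 2.4.6 and matplotlib 3.10.9.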

Additional observations from a re-analysis of the deposited data

Results flagged for a closer look

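The genes below had an effect of pLOC-*MALINC1* that differed between the lines by the limma test of the difference itself. Values are log2 differences, the log2FC in DCIS.COM minus that in MCF10A. A positive value means the higher log2FC in DCIS.COM, which is not always the larger change. For example, the value of *FN1* is positive, but its log2FC was -2.05 in MCF10A and 0.85 in DCIS.COM. Among the desmosome members they were 0.61 for *DSC2*, -0.27 for *DSC3*, 0.24 for *DSG2*, 0.29 for *DSG3*, 0.65 for *DSP*, 0.36 for *JUP* and -0.69 for *PKP2*. Among the other desmosome genes they were -1.79 for *DSG1*, -1.83 for *DSG4* and 1.78 for *CDSN*, all with low counts. No DCIS.COM library held a read of *DSG1*, and *DSG4* had at most 1 read there. A vector effect on these 2 genes could not be seen in DCIS.COM, so their values mainly restate the effect in MCF10A.

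Among keratins and junction genes they were -1.60 for *KRT14*, 1.01 for *KRT19*, -1.08 for *NECTIN1* and -1.09 for *LAMA3*. Among regulators and kinases they were -3.23 for *TP63*, 0.77 for *OVOL1*, -0.67 for *SNAI2*, 1.95 for *ZEB2* and -0.97 for *SRC*. *ZEB2* was at or under the floor of 3 reads in every DCIS.COM library, so its value rests mainly on MCF10A. Among the cell type markers they were 1.10 for *CDH2*, 2.90 for *FN1*, -4.67 for *PECAM1* and 0.82 for *COL1A1*.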

How the results depend on the processing

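Of 801 values of members under 18 alternatives, 760 kept their direction and their side of the threshold, 25 lost a call, 8 gained one and 8 turned direction. With a fold limit of 1.5 in place of 2, 2 members were over the limit in MCF10A, 5 in DCIS.COM, 3 for the difference and 8 between the lines with pLOC-*MALINC1*. The share of all genes over that limit was not counted, so these counts cannot be set against the rate over all genes. Without the trend, 2 members (*DSP* and *PKP2*) passed for the difference in place of 7. In that fit 3348 of all 13842 genes passed for the difference, in place of 4972. The values that turned were all near 0. *DSC2* in MCF10A was -0.0657 after quantile normalization and -0.00448 with limma-voom. With 1 library left out in turn, *DSC2* in MCF10A ranged from -0.0991 to 0.130 (below 0 without MCF10A pLOC-empty library 1 or MCF10A pLOC-*MALINC1* library 1). In the same way *PKP3* in MCF10A ranged from -0.0167 (without MCF10A pLOC-empty library 1) to 0.0924. *PKP2* in DCIS.COM ranged from -0.00731 (without DCIS.COM pLOC-*MALINC1* library 2) to 0.0345. The difference for *PERP* ranged from -0.0101 to 0.0853 (below 0 without MCF10A or DCIS.COM pLOC-*MALINC1* library 2). The cause was not tested. Over the fits that each leave out 1 library, every member that had passed as higher between vectors kept a log2FC above 0. The smallest was 0.214 in MCF10A (*JUP*) and 0.131 in DCIS.COM (*DSG2*). The largest was 0.901, for *DSC3* in MCF10A, which is still below 2-fold. Between the lines each member kept its direction with either vector. In these fits the lone library of a group was assumed to vary like the others.

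With the length of all exons, a choice made after seeing the data, the ratio *DSG3* to *DSG2* was 1.49, 2.16, 1.10 and 1.67 in the 4 groups (MCF10A pLOC-empty, MCF10A pLOC-*MALINC1*, DCIS.COM pLOC-empty, DCIS.COM pLOC-*MALINC1*), and *PKP3* to *PKP2* was 9.99, 6.28, 6.07 and 6.63. Deviations of libraries with the same number correlated at -0.07 to 0.04, so no strong shared profile was seen. This cannot tell whether libraries of the same number were prepared or sequenced together, which the labels do not say. A fit with the replicate block called 5 members in MCF10A, 7 in DCIS.COM and 7 for the difference, as without it, and it changed no call of a member. Over all genes the block gave 5327 genes at an adjusted p below 0.01 for MCF10A (5485 without it) and 4429 for DCIS.COM (4592 without it).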
